A study of Mus musculus with 6 samples.

Results

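The endothelin system of the mouse carotid body was described from 7 genes chosen by name: the ligands Edn1, Edn2 and Edn3, the receptors Ednra and Ednrb, and the converting enzymes Ece1 and Ece2. Every probe set that the platform annotation assigns to 1 of these symbols alone was taken, which gave 14 of 45101 probe sets and covered 6 of the 7 genes, out of 18193 genes named on the array. Ednra was named by no probe set there and was not analysed here. The carotid body senses blood oxygen where the common carotid artery divides. Carotid bodies of male mice aged 28 days from the inbred strains DBA/2J and A/J, both from the Jackson Laboratory and untreated, were pooled before RNA extraction. There were 3 pools of DBA/2J, made from 19, 18 and 19 mice (38, 36 and 38 organs), and 3 of A/J, made from 20, 21 and 19 mice (40, 42 and 38 organs). Each pool was read on 1 Affymetrix mouse genome array. All p-values below therefore measure the spread between pools, not between mice, and the labels do not say how separately the pools were prepared. Array 2 of both strains share a number in their titles, as do array 3 of both strains, and what this number marks is not stated.

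Endothelins are short peptides that constrict vessels and guide neural crest cells. Each is cut from a large precursor, first by furin-type proteases to an inactive "big" endothelin and then by a membrane metalloprotease, an endothelin converting enzyme, to the active peptide. The type A receptor (Ednra) of smooth muscle and mesenchyme prefers endothelin-1 and endothelin-2, whereas the type B receptor (Ednrb) of endothelium, glia and neural crest binds all 3 peptides and also clears them. In the rat carotid body, endothelin-1 rises in type I (glomus) cells during chronic hypoxia and strengthens the chemoreceptor response through the type A receptor.

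The start region of Edn1 is shown because this peptide has the best known transcriptional control of the family, by GATA factors, AP-1 and the hypoxia-inducible factors. The stretch below lies just after the RefSeq start of the gene on the plus strand of GRCm38.p6, at chr13:42301478-42301507. Capitals mark the GATA core (GATAA) and the hypoxia-inducible factor core (ACGTG), both of which match on the opposite strand.
Edn1: cgggtcTTATCtctggctgCACGTtgcctg
An AP-1 core (TGACTAA) begins at base 37 counted from that RefSeq start. Whether transcription starts there in the carotid body was not tested. RefSeq windows of 300 bases around gene starts, searched on both strands, held ACGTG in 19.6% of 32851 cases, GATAA in 25.4% and TGACTAA in 2.35%. Of these windows, 10 belong to the endothelin genes. ACGTG was found in 1 window each of Edn1, Ece1 and Ece2, and the other cores were found in the Edn1 window only. The sequence is that of C57BL/6J, and a match describes letters and not binding in either strain.

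No endothelin gene passed the test between the strains when all 6 arrays were used. Of the 14 probe sets, 10 passed a filter on dim signals, which kept the upper 60% of probe sets by mean. None of the 10 was called by limma at a Benjamini-Hochberg adjusted p of 0.05, and 0 had an unadjusted p under 0.05. Over all 27022 probe sets tested, 3.27% were called (1.86% higher and 1.41% lower in DBA/2J) and 15.3% had an unadjusted p under 0.05. The log2 differences below are DBA/2J minus A/J, after 16 was added to each signal, which understates changes of low signals. Their median over the 10 was -0.26, against 0.011 over all probe sets tested. Of the 10, 2 were higher and 8 lower in DBA/2J, but 6 of those 8 belong to Edn3 and Ednrb. The plot of signals shows every probe set on every array.

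**Figure D1:**
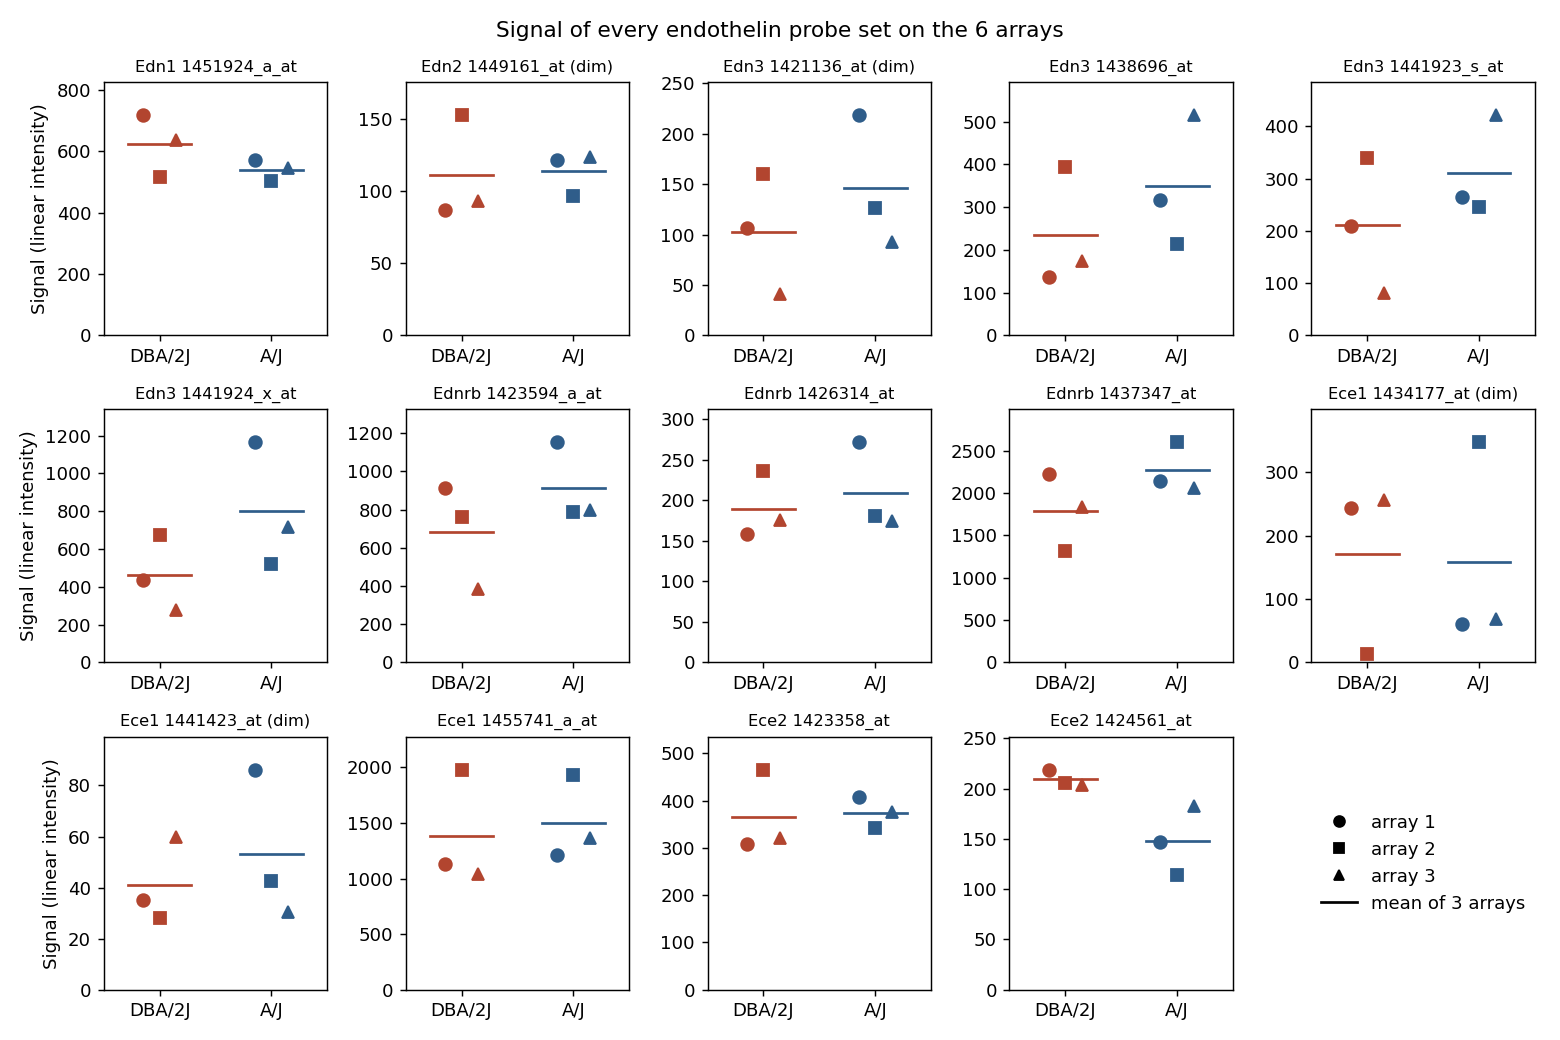
Linear signal (intensity, vertical axes from 0) of the 14 endothelin probe sets in 3 DBA/2J and 3 A/J pools; symbols mark the array number, bars are means of 3 arrays, and "dim" marks the 4 probe sets under the filter. The strains overlap in every panel but that of Ece2 1424561_at, where the DBA/2J arrays lie between 203.2 and 218.8 and the A/J arrays between 113.7 and 182.4.

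Edn1 encodes endothelin-1, the main vasoconstrictor made by endothelium, and is read by 1 probe set (1451924_a_at). Its signal was 717.6, 517.7 and 637.6 on the DBA/2J arrays, against 572, 504.5 and 544.3 on the A/J arrays. The groups overlapped, because DBA/2J array 2 lay among the A/J arrays while the other DBA/2J arrays lay above them all. The means were 624 ± 101 in DBA/2J and 540 ± 33.9 in A/J (SD, n = 3 arrays each), a log2 difference of 0.19 (SE 0.20, limma adjusted p = 0.731). The 95% interval ran from -0.25 to 0.64, so DBA/2J between 0.838 and 1.56 times A/J was compatible with these arrays. Summed over 16 endothelial markers, the signal was 19201 to 24362 in DBA/2J and 17088 to 17291 in A/J. Single endothelial markers differed in either direction. When each array was taken relative to its own endothelial markers, the Edn1 log2 difference was -0.020, on a scale where the median of all probe sets was -0.20. In pooled tissue, fewer cells of a type and less RNA per cell cannot be told apart.

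Edn2, the vasoactive intestinal contractor peptide, was dim. Its only probe set (1449161_at) read 86.8, 152.4 and 93 in DBA/2J and 121.4, 96.3 and 123.6 in A/J, and its mean log2 value was under the lowest kept for the test, which corresponds to a signal of 114.1. With no filter on dim probe sets the log2 difference was -0.064 (SE 0.31, limma adjusted p = 0.966). No detection call was used here, so whether Edn2 was above background is unknown.

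Edn3, the ligand whose loss in the mouse mutant lethal spotting leaves part of the gut without ganglia and part of the coat without pigment cells, showed the lowest adjusted p of the family. It is read by 4 probe sets. The brightest, 1441924_x_at, read 438.6, 674.9 and 277.5 in DBA/2J, against 1163.7, 521.8 and 715.8 in A/J. DBA/2J array 2 lay above A/J array 2, so the groups overlapped, although DBA/2J was at least 1.5-fold lower in 6 of the 9 pairs of arrays. The means were 464 ± 199.9 in DBA/2J and 800.4 ± 329 in A/J (log2 difference -0.78, SE 0.37, 95% interval -1.60 to 0.048, limma adjusted p = 0.364). The suffix _x_at marks probe sets in which some probes can also bind other transcripts.

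The other Edn3 probe sets gave lower means in DBA/2J as well, without passing the test. Probe set 1438696_at read 135.6, 394.3 and 174.6 in DBA/2J and 317.7, 213.7 and 514.8 in A/J (log2 difference -0.59, limma adjusted p = 0.583). Probe set 1441923_s_at read 209.5, 340.4 and 81.2 in DBA/2J and 264.3, 245.4 and 421.3 in A/J (log2 difference -0.68, limma adjusted p = 0.544). In all 4 probe sets DBA/2J array 2 was the highest of its strain, and in 3 of them DBA/2J array 3 was the lowest of the 6 arrays. The dim 1421136_at read 106, 160.2 and 41.3 in DBA/2J and 218.2, 126.5 and 92.6 in A/J, where the log2 difference without a filter was -0.52. The annotation assigns all 4 probe sets to Edn3 alone, and as readings of 1 gene on the same arrays they are not independent of each other.

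Array 2 of each strain had the highest 3' to 5' signal ratio of the Gapdh control probe sets within its strain, a measure of how far the labelled RNA was shortened. The ratio was 3.28 on DBA/2J array 2 and 1.73 and 2.50 on the other DBA/2J arrays. On A/J array 2 it was 4.87, against 1.74 and 1.81 on the other A/J arrays. The actin ratio was 5.31 on DBA/2J array 2 and 5.87 on A/J array 2, and 2.38 on DBA/2J array 3 and 2.36 on A/J array 3. The fit was repeated without array 2 of both strains, a choice made after seeing the data, which removes a pair with a shared title number and leaves 2 arrays per strain. In it 7.93% of all probe sets were called. Of the 3 endothelin calls, 1 is the dim Ece1 probe set described below, which entered this fit only through its DBA/2J signals. Edn3 was called by 1441924_x_at, at a log2 difference of -1.35 (SE 0.31, limma adjusted p = 0.0281), and by 1438696_at, at -1.31 (SE 0.31, limma adjusted p = 0.0318). Edn3 1441923_s_at was at -1.24 (limma adjusted p = 0.111). In each of these Edn3 probe sets array 2 was the highest of DBA/2J and the lowest of A/J. Leaving it out therefore had to widen the difference, so the Edn3 calls of this fit are no support for a difference. Other arrays moved Edn3 toward 0. For 1441924_x_at, leaving out DBA/2J array 2 alone gave -1.08 (limma adjusted p = 0.115), but leaving out DBA/2J array 3 or A/J array 1 gave -0.47 each, and leaving out A/J arrays 1 and 3 gave -0.25. Without DBA/2J array 3, 1441923_s_at was at -0.16. Without A/J array 3, 1438696_at was at -0.28. No single array left out gave a call in the family. The part of RNA length in these differences was not tested.

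**Figure D2:**
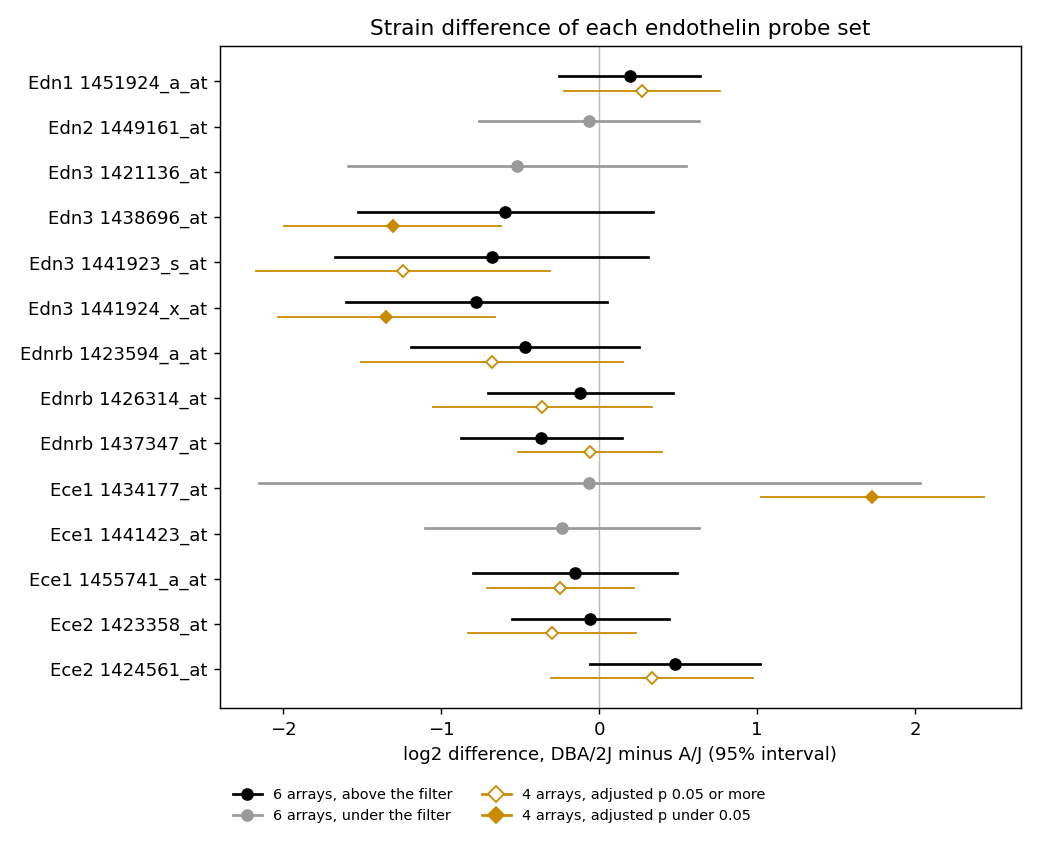
log2 difference (horizontal axis, DBA/2J minus A/J, log2(signal + 16) scale) with its 95% interval for each endothelin probe set; circles are the fit of 6 arrays, diamonds that of 4 arrays without array 2 of each strain, filled where the adjusted p was under 0.05. All circles have intervals that include 0, and the filled diamonds are Edn3 1438696_at (-1.31), Edn3 1441924_x_at (-1.35) and Ece1 1434177_at (1.73). In each of these probe sets the arrays left out ran against the difference, so the filled diamonds are no support for it.

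By the rule for likeness, the genes whose log2 values followed Edn3 1441924_x_at most closely over the 6 arrays were Mis18a (Pearson r = 0.996), a centromere factor, Hsp90aa1 (0.994), a stress-inducible chaperone, and Mpnd (0.994). They are the top 3 of 13001 genes over 6 arrays that share the same pools and scaling, so values this high describe a search and no relation. None was called between strains by limma, with log2 differences of -0.28, -0.17 and -0.29 (adjusted p = 0.616, 0.682 and 0.538).

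Ednrb, the type B receptor that is mutated in piebald mice and needed by the precursors of enteric neurons and melanocytes, was lower on average in DBA/2J in all 3 of its probe sets, within the spread between arrays. The brightest, 1437347_at, read 2219.8, 1310.8 and 1835.7 in DBA/2J, against 2144.5, 2597.6 and 2064.3 in A/J. DBA/2J array 1 lay among the A/J arrays and the other DBA/2J arrays below them. The means were 1789 ± 456 in DBA/2J and 2269 ± 288 in A/J, at a log2 difference of -0.37 (SE 0.23, 95% interval -0.87 to 0.14, limma adjusted p = 0.518). A DBA/2J level between 0.545 and 1.10 times that of A/J was therefore compatible with these arrays. Without array 2 of each strain this difference was -0.059 (limma adjusted p = 0.906), and without DBA/2J array 2 alone it was -0.16.

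The other Ednrb probe sets did not pass the test either. Probe set 1423594_a_at, whose suffix marks alternative transcripts of 1 gene, read 910.8, 759.9 and 384.6 in DBA/2J and 1151.4, 789.1 and 798.4 in A/J (log2 difference -0.47, limma adjusted p = 0.570). Here the low value was on DBA/2J array 3, without which the difference was -0.11, whereas 1437347_at was lowest on DBA/2J array 2. Probe set 1426314_at read 158, 236.1 and 175.4 in DBA/2J and 271.5, 180.4 and 174.5 in A/J (log2 difference -0.12, limma adjusted p = 0.890). Markers of glia, which express Ednrb, were also lower in sum in DBA/2J: summed over the 11 of 14 markers with a probe set, they were 39413 to 43658 in DBA/2J and 54770 to 64940 in A/J, with no overlap. Of these 11, each read by its brightest probe set, 1 fell (Gpm6b, a myelin-related membrane protein, log2 difference -0.73, limma adjusted p = 0.0495), 0 rose and 10 were not called. Other tested probe sets gave -0.62 to -0.08 for Gpm6b. For the glial marker Mbp, at -0.45 by its brightest probe set, others gave -1.16 to 0.46. The part of the glial markers in the Ednrb values was not tested.

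Ece1, the main converting enzyme for big endothelin-1, had 1 probe set above the filter. This set, 1455741_a_at, read 1127.1, 1980.4 and 1037.1 in DBA/2J, against 1210.6, 1935.3 and 1362.6 in A/J. In each strain array 2 was the highest, and these are also the arrays with the highest Gapdh ratios, whose part in the values was not tested. The means were 1382 ± 521 in DBA/2J and 1503 ± 382 in A/J, at a log2 difference of -0.15 (SE 0.29, 95% interval -0.80 to 0.49, limma adjusted p = 0.868).

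The dim Ece1 probe sets went different ways on the arrays. Probe set 1434177_at read 243.1, 12.9 and 256.4 in DBA/2J and 60.2, 346.6 and 68.2 in A/J, a 26.9-fold range over the 6 arrays. The single low DBA/2J value and the single high A/J value were both on array 2. Over 6 arrays its log2 difference was -0.063 with no filter (SE 0.92, limma adjusted p = 0.989). Without array 2 of each strain, whose values ran the other way, its log2 difference was 1.73 (SE 0.31, limma adjusted p = 0.0104). It entered that test only through its DBA/2J signals, since both remaining A/J signals were below the filter level of 114.1, so this call is no support for a difference. In the same fit 1455741_a_at was at -0.25 (limma adjusted p = 0.555). The last probe set, 1441423_at, had signals from 28 to 60 in DBA/2J and from 30.3 to 86.2 in A/J.

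Ece2, a converting enzyme of neuroendocrine cells that works at acid pH, was read by 2 probe sets that differed in pattern. Probe set 1424561_at read 218.8, 205.4 and 203.2 in DBA/2J, against 147.2, 113.7 and 182.4 in A/J. All DBA/2J arrays lay above all A/J arrays, the only such separation among the 14 probe sets; over all probe sets tested, 21.1% were separated in this way. The means were 209 ± 8.44 in DBA/2J and 148 ± 34.4 in A/J, at a log2 difference of 0.48 (SE 0.24, 95% interval -0.055 to 1.02, limma adjusted p = 0.392). Probe set 1423358_at read 308.1, 465.6 and 321.8 in DBA/2J and 406.8, 341.1 and 375.8 in A/J, at a log2 difference of -0.055 (SE 0.22, limma adjusted p = 0.945). RefSeq lists Eef1akmt4-Ece2 as another name of this locus, and which of its transcripts each probe set reads was not tested. Type I cell markers, summed over 15 genes, were 70528 to 81878 in DBA/2J and 33592 to 41964 in A/J, and their part in the Ece2 values was not tested.

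By the design text, a gene counted as changed where 6 or more of the 9 array pairs, a 1.5-fold difference and a p under 0.05 were met. Applied to single array pairs with limma's unadjusted p in place of the authors' own, 0 of the 14 endothelin probe sets passed it, while 10.1% of all probe sets tested did. Edn3 1441924_x_at reached 6 pairs at an unadjusted limma p of 0.0620 (adjusted p = 0.364).

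Other genes of endothelin biology were taken from 4 lists, in which 55 genes were tested. Of these, 3 rose in DBA/2J, 0 fell and 52 were not called, while 3.77% of all genes tested were called (2.17% higher and 1.60% lower). Their median log2 difference was 0.010, against 0.025 over all genes tested. Without A/J array 1, A/J array 3 or DBA/2J array 1, none of the 3 was called, at limma adjusted p of 0.0535 to 0.123, with log2 differences of 1.09 to 1.63. Without DBA/2J array 3, Hand2 was not called either (limma adjusted p = 0.0803). Without array 2 of each strain 9 genes of the lists were called, the 3 among them, in a fit that called 7.93% of all probe sets.

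Of 10 tested genes that process or clear endothelins, 1 rose, 0 fell and 9 were not called, with a median log2 difference of -0.21. The gene that rose was Cma1, a mast cell chymase that in the human form cuts big endothelin-1 to a longer active peptide. Cma1 read 4776.6, 4663.1 and 2789.5 in DBA/2J, against 1212.7, 1602.5 and 1570.6 in A/J, with no overlap (log2 difference 1.44, SE 0.24, limma adjusted p = 0.0140). Mast cell markers summed to 7249.7 to 11076 in DBA/2J and 4896.1 to 5134.9 in A/J over 8 genes that include Cma1. Of these 8, 1 rose (Cma1 itself), 1 fell (Hdc, which makes histamine, log2 difference -1.70, limma adjusted p = 0.0366) and 6 were not called. The part of mast cell number in the Cma1 values was not tested. Mme, neprilysin, which degrades endothelins, averaged 872 ± 325 in DBA/2J and 1320 ± 391 in A/J (log2 difference -0.62, limma adjusted p = 0.393). Furin, which makes big endothelins, averaged 343 ± 102 in DBA/2J and 629 ± 415 in A/J (log2 difference -0.70, limma adjusted p = 0.474). Furin read 314.3, 258.5 and 456 in DBA/2J and 377.2, 1108.5 and 401.3 in A/J. Only A/J array 2 lay above the DBA/2J arrays. Kel, whose human product cuts big endothelin-3, was dim, with signals from 70.8 to 129.5 in DBA/2J and from 84.7 to 98 in A/J.

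Of 28 tested genes of G protein and calcium signalling, each read by its brightest probe set, 1 rose, 0 fell and 27 were not called. Their median log2 difference was 0.00013. Rgs5 was not called by its brightest probe set (log2 difference 0.36, limma adjusted p = 0.339). Its other tested probe sets gave log2 differences of 2.02 to 4.40, so the count does not describe every probe set of a gene. Rgs4, which shortens the signal of Gq- and Gi-coupled receptors and is abundant in glomus cells, read 9952.5, 6275.3 and 9066.4 in DBA/2J, against 3525.1, 3598.7 and 3466.3 in A/J. The groups did not overlap (log2 difference 1.23, SE 0.19, limma adjusted p = 0.0106), and another Rgs4 probe set gave 1.20. The part of the higher type I cell marker sums in the Rgs4 values was not tested. Gnaq and Gna11, the G proteins that link endothelin receptors to phospholipase C, had log2 differences of 0.098 and 0.088 (limma adjusted p = 0.857 and 0.896).

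**Figure D3:**
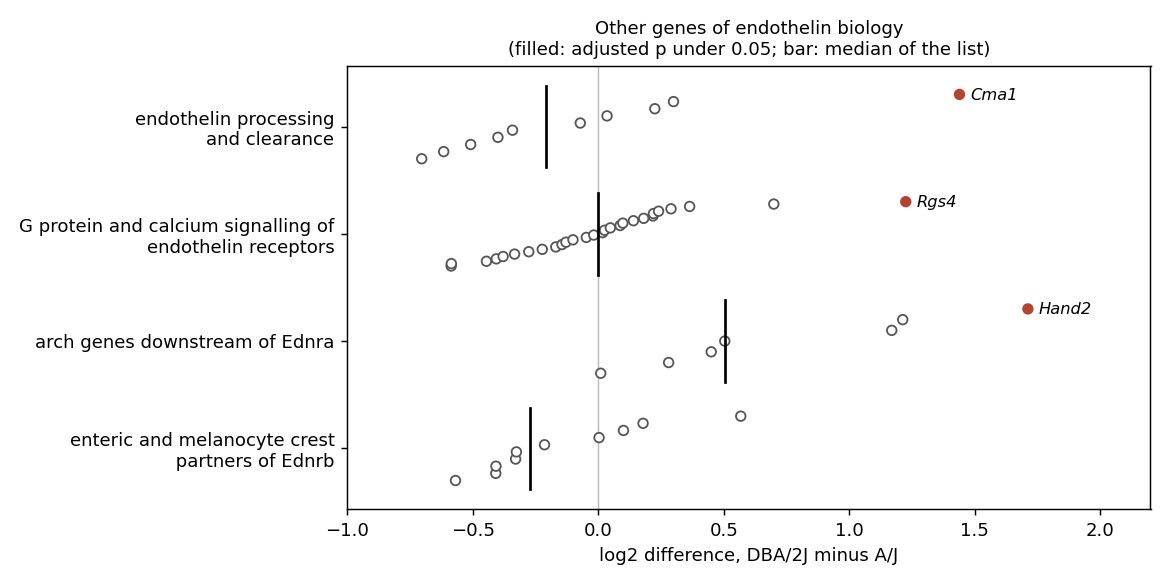
log2 difference (horizontal axis, DBA/2J minus A/J) of each tested gene of 4 lists of endothelin biology, 1 point a gene; filled points passed an adjusted p of 0.05 and vertical bars are list medians. Cma1 (1.44), Rgs4 (1.23) and Hand2 (1.71) are the filled points, all on the side of DBA/2J.

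In the pharyngeal arches of the embryo, endothelin-1 acting on Ednra switches on Dlx5, Dlx6, Hand1 and Hand2. Of 7 tested genes of this arch list, 1 rose, 0 fell and 6 were not called, with a median log2 difference of 0.50. Hand2 read 5742.7, 2858.2 and 6575.2 in DBA/2J, against 1182.8, 1970.3 and 1287.9 in A/J, with no overlap (log2 difference 1.71, SE 0.33, limma adjusted p = 0.0240). Hand2 is also among 15 tested type I cell markers, of which 9 rose (among them Insm1, Scg2, Chgb and Chga), 0 fell and 6 were not called, with a median log2 difference of 1.60. The part of type I cell number in the Hand2 values was not tested. Dlx5 averaged 559 ± 236 in DBA/2J and 233 ± 82.1 in A/J (log2 difference 1.17, limma adjusted p = 0.133). Dlx2 averaged 216 ± 52.0 in DBA/2J and 90.2 ± 45.6 in A/J (log2 difference 1.21, limma adjusted p = 0.143). In the fit without a filter, Dlx6, Dlx3, Gsc and Pitx1 went the other way, with log2 differences of -0.24, -0.19, -0.15 and -0.017. These genes were under the filter. Dlx1 was under it because of A/J: it read 186.7, 194 and 315.9 in DBA/2J and 54.3, 101.2 and 16.9 in A/J, with no overlap (log2 difference 1.90 without the filter, SE 0.47, limma adjusted p = 0.106).

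Of 10 tested genes that act with Ednrb and Edn3 in enteric and melanocyte precursors, 0 rose, 0 fell and 10 were not called, with a median log2 difference of -0.27. Gdnf, the growth factor that acts on Ret in the enteric precursors, was left out by the filter because of A/J. It read 182, 231.3 and 354.9 in DBA/2J, against 26.2, 37.7 and 47.8 in A/J, with no overlap. Without the filter Gdnf was higher in DBA/2J (log2 difference 2.32, SE 0.34, limma adjusted p = 0.0125), the 1 call among 9 list genes that the filter had removed. The fit without a filter called 818 of all 45037 probe sets. Mitf, the master regulator of melanocytes, averaged 888 ± 52.5 in DBA/2J and 595 ± 61.3 in A/J (log2 difference 0.57, limma adjusted p = 0.163). Sox10, a crest and glial factor that acts with Ednrb and is also on the glial list, averaged 1111 ± 387 in DBA/2J and 1627 ± 383 in A/J (log2 difference -0.57, limma adjusted p = 0.384). Another tested Sox10 probe set gave -0.04.

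The pools also differed in the tissue they held. Skeletal muscle markers, of which 15 of 15 tested fell, summed to 1304.4 to 3345.5 in DBA/2J and 52224 to 132000 in A/J. Endothelium (16 markers) and smooth muscle and pericytes (14 markers) are where endothelin-1 is made and acts. Read by the brightest probe set of each gene, they had 0 called in either direction, with median log2 differences of 0.32 and -0.30. The endothelial markers Pecam1, Cdh5, Tek, Tie1 and Robo4 were lower in DBA/2J, and the others were higher. The log2 differences of the lower ones were -0.12, -0.16, -0.12, -0.57 and -0.053. Among endothelial markers the smallest adjusted p by limma was that of Kdr, a VEGF receptor (log2 difference 0.69, adjusted p = 0.0982), followed by Egfl7 (0.53, adjusted p = 0.174). Among smooth muscle markers so read it was that of Actg2, a smooth muscle actin (-0.86, adjusted p = 0.138), followed by Cnn1 (-0.71, adjusted p = 0.149). By their brightest probe sets Pdgfrb (log2 difference 0.64, limma adjusted p = 0.285) and Rgs5 (0.36) were higher in DBA/2J. The other smooth muscle markers were lower. Other tested probe sets of this list did not all match the brightest in size or direction. They gave log2 differences of 2.02 to 4.40 for Rgs5, 1.26 for Pdgfrb, -1.62 to -0.27 for Synpo2 and -3.09 for Des. Those of Acta2, Myh11, Mylk and Cspg4 lay between -0.41 and 0.25. Smooth muscle markers summed to 55149 to 70736 in DBA/2J and 62074 to 72318 in A/J, and these ranges overlap. What part these differences have in the endothelin values was not tested beyond the scaling to endothelial and to smooth muscle markers.

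**Figure D4:**
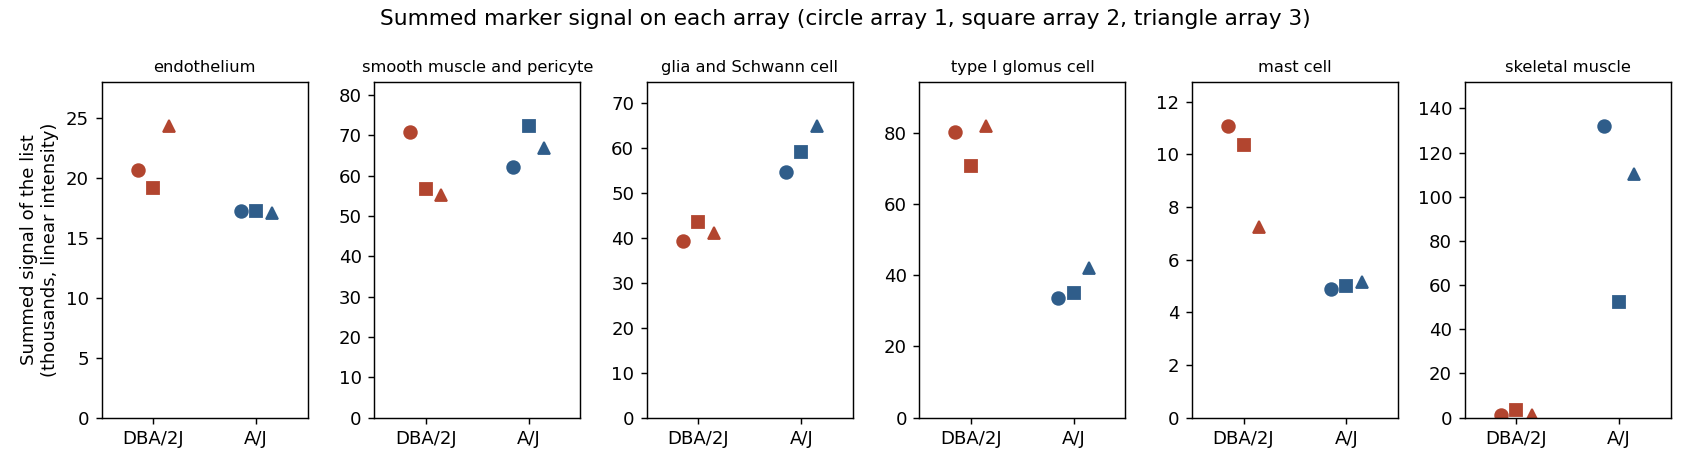
Summed linear signal (vertical axes from 0, scaled as the axis label states) of 6 marker lists on each array, with 3 DBA/2J and 3 A/J pools a panel and symbols for the array number. Glial and skeletal muscle sums are lower on every DBA/2J array than on every A/J array, endothelial, type I cell and mast cell sums are higher, and smooth muscle sums overlap.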

How the data were processed

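The series holds linear intensity signals deposited by the authors for 6 Affymetrix arrays. Which program summarised the probes was not given in the sources used here. Each array has a trimmed mean of 500, so signals had been scaled before deposit. Per the labels' protocols, RNA was extracted with Trizol and amplified from the poly(A) tail, which lowers signals far from the 3' end. Gene names came from the platform annotation table at GEO, with symbols brought up to date from RefSeq: 1 gene is given for 34958 of the 45101 probe sets and more than 1 for 932, while 9211 stay unnamed here.

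Tests used limma 3.58.1 under R 4.3.3, and plots matplotlib 3.10.9. After removal of 64 control probe sets, log2(signal + 16) values of the upper 60% (27022) entered lmFit and then eBayes (trend on mean signal), DBA/2J minus A/J, two-sided, without covariates, and p was adjusted by Benjamini-Hochberg over all of them. The brightest probe set stood for a gene (13006 genes). Dim members were read from the fit without a filter. The procedure was tested on simulated data. Precision is limited by having 3 arrays a strain.

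The members, lists and alternatives were chosen with earlier results of these data known. Named were all members and called genes of each list (at most 4, or at most 2 with the smallest adjusted p where none was called). The 3 genes most correlated with the member of smallest adjusted p were also named. Not every called marker is printed. Further list genes (Mme, Furin, Kel, Gnaq, Gna11, Dlx2, Dlx5, Gdnf, Dlx1, Mbp and dim arch genes) were named for their role or size after their values were seen. So were further endothelial and smooth muscle markers, to show both directions. Cell type lists are mostly given as sums and counts. Lists with no place beside a member gave 2 of 12 fibroblast genes higher in DBA/2J (Fmod, Fbln2), 2 of 6 epithelial genes lower (Smr2, Epcam), 3 of 7 adipocyte genes lower (Fabp4, Gpd1, Ucp1) and 0 of 9 macrophage genes called.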

Additional observations from a re-analysis of the deposited data

How the results depend on the processing

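The count of 0 endothelin probe sets called was the same in 20 of 21 alternatives, which included each array left out in turn, and was 3 without array 2 of each strain. Without that pair of arrays Ece1 1434177_at turned to 1.73. The count of 3 pathway genes is given here with that over all 27022 probe sets (883). It was 12 with array weights (3007 of all), 5 by the study's rule of array pairs (2725), 9 without array 2 of each strain (2143), 0 without A/J arrays 1 and 3 (78) and 0 with the shared title number as a fixed replicate block (0). Leaving out 1 array gave 0 to 4. Deviations of arrays with the same title number correlated at -0.26 (arrays 2) and 0.035 (arrays 3) across probe sets. Between strains, pairs of arrays with different title numbers lay between -0.264 and 0.202. The random replicate block kept the counts at 0 and 3.

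Over the members' differences, 7 of 14 probe sets kept their direction in every alternative tried, among them all 4 of Edn3, but their sizes varied. Over all settings Edn3 1438696_at lay between -1.31 and -0.011, 1441923_s_at between -1.24 and -0.16, 1441924_x_at between -1.35 and -0.25 and 1421136_at between -0.93 and -0.067. Leaving out 1 array gave -0.71 to -0.11 for Ednrb 1423594_a_at, -0.54 to -0.16 for Ednrb 1437347_at, 0.32 to 0.63 for Ece2 1424561_at and 0.088 to 0.32 for Edn1. Edn1 turned only relative to endothelial markers, to -0.020, a scaling that moves all probe sets (median -0.20). The other 6 turned in several settings, and the cause was not tested. With 1 array left out these were -0.29 to 0.069 for Edn2, -0.27 to 0.071 for Ednrb 1426314_at, -0.61 to 1.00 for Ece1 1434177_at, -0.48 to 0.090 for Ece1 1441423_at, -0.44 to 0.043 for Ece1 1455741_a_at and -0.24 to 0.050 for Ece2 1423358_at. Without A/J arrays 1 and 3, Edn2, Ednrb 1426314_at and Ece2 1423358_at were at 0.14, 0.049 and 0.070. With the fixed replicate block, Edn2, Ednrb 1426314_at, Ece1 1441423_at and Ece2 1423358_at were at 0.11, 0.18, 0.15 and 0.11. Ece1 1434177_at was at 0.056 with a pseudocount of 64 and 0.88 with array weights. Relative to smooth muscle markers, which moved the median of all probe sets to 0.28, Edn2, Ednrb 1426314_at, Ece1 1434177_at, 1441423_at and 1455741_a_at and Ece2 1423358_at were at 0.20, 0.15, 0.20, 0.033, 0.11 and 0.21. The mean of both Ece2 probe sets gave 0.21. No detection call was used, so signals near the filter may be background.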
